A study of Mus musculus with 48 samples.

Results

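Lymphatic endothelial cells (LECs) line the vessels that return fluid and immune cells from tissues to the blood. The diaphragm LEC libraries of mice that received angiotensin II together with VEGFCc156s (3 mice) were compared here with those of mice that received angiotensin II alone (5 mice). These 8 libraries were chosen by their labels from the 48 of the series. The other 40 are 4 diaphragm LEC libraries of control mice and the heart LEC, heart blood endothelial and cardiomyocyte libraries. Human angiotensin II, alone or with recombinant human VEGFCc156s, or bovine serum albumin (BSA) in the control mice, was delivered from a minipump under the skin. All mice were males on the C57BL/6 background that carried Prox1-eGFP, a knock-in that places a green fluorescent protein behind the Prox1 coding sequence, so every group shares that allele. The mice were 8 to 16 months old by their labels. Sorting kept living cells with eGFP and the endothelial marker CD31 and without the leukocyte marker CD45.2, which makes the reporter part of the definition of the population. Each library came from a different mouse, and the labels give 2 sequencing batches. In batch 1 there were 3 angiotensin II libraries and 1 with VEGFCc156s, and in batch 2 there were 2 of each.

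VEGFC is the main growth factor of lymphatic vessels and signals through VEGFR3, the receptor encoded by Flt4. VEGFCc156s carries a substitution that leaves binding to VEGFR3 and removes most binding to VEGFR2, the receptor encoded by Kdr, so it acts on lymphatic more than on blood endothelium. Angiotensin II raises blood pressure and promotes inflammation and fibrosis. The comparison asks how the transcripts of peripheral LECs differ when the lymphatic growth factor is added to this stress, away from the heart.

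Expression is given in TPM, the share of all transcripts in a library after correction for transcript length. A change is the fitted difference of log2(TPM + 1), angiotensin II with VEGFCc156s minus angiotensin II alone, and a negative value is a lower level with VEGFCc156s. Of 23839 genes tested, 0 had a limma adjusted p under 0.05 (percent called: 0), and the smallest adjusted p was 0.474, for C1qb. Every value below is therefore a measured level or difference of a gene that did not pass the adjusted threshold. Unadjusted p-values only order genes and set the threshold of descriptive counts, and are not calls. With VEGFCc156s 267 genes were higher (1.12% of those tested) and 1827 lower (7.66%) at an unadjusted p under 0.05. In 319 genes (1.34%) the 3 libraries with VEGFCc156s all lay above the 5 angiotensin II libraries, and in 1753 (7.35%) all lay below. The median change of all genes was -0.21, and was -0.21 in batch 1 and -0.19 in batch 2. The split between higher and lower genes depended on scaling. It was 603 higher and 802 lower after quantile normalization, where the median of all genes was 0.03, and 293 and 255 with the number of listed genes as a covariate, where that median was 0.05. That number did not overlap between the groups compared, so the latter fit cannot cleanly separate it from treatment. Leaving out VEGFCc156s mouse 6 gave 85 higher and 637 lower, leaving out VEGFCc156s mouse 8 gave 216 and 990, and leaving out angiotensin II mouse 3 gave 509 and 1699.

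The labelled cell type was clear in all 8 libraries. Prox1, the transcription factor that specifies lymphatic identity, was at 175, 245, 233, 241 and 224 TPM with angiotensin II (mice 3, 4, 14, 15 and 18, an order kept throughout) and at 239, 208 and 315 TPM with VEGFCc156s (mice 2, 6 and 8, also kept throughout). Lyve1, a hyaluronan receptor of lymphatic capillaries, lay between 3184 and 4319 TPM in the former and between 3713 and 5161 TPM in the latter. Pdpn, the podoplanin gene, was at 93.6 ± 25.5 TPM (SD, n = 5) and 131 ± 13.1 TPM (SD, n = 3). The groups overlapped for all 3 markers.

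The libraries differed in how many genes they listed, and this difference accompanies every result on low-level genes. Genes at 1 TPM or more numbered between 20062 and 23691 with angiotensin II and between 14963 and 18373 with VEGFCc156s, a difference of -5102 on average (exact permutation, two-sided, p = 0.0179, which is the lowest value 5 against 3 libraries can reach, 0.0402 after Benjamini-Hochberg adjustment over 9 library measures). The control libraries lay between 12924 and 18116. Counted apart, long non-coding genes numbered 3793 on average with angiotensin II and 1922 with VEGFCc156s, and pseudogenes 3387 and 1924, while protein-coding genes numbered 14157 and 12501. The groups did not overlap in any of these 3 classes (exact p = 0.0179 for each). At a minimum of 100 TPM the direction was opposite, with 1564 genes on average against 1684 (exact p = 0.0714). Without VEGFCc156s mouse 8 the difference at 1 TPM was -4290 (exact p = 0.0952). The angiotensin II library of mouse 4 stood apart from the rest, at 2.86 SD on the first principal component and with 11775 genes at 10 TPM or more against 8128 to 8496 in the other 4. No library passed the study's limit of 3 SD.

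**Figure D1:**
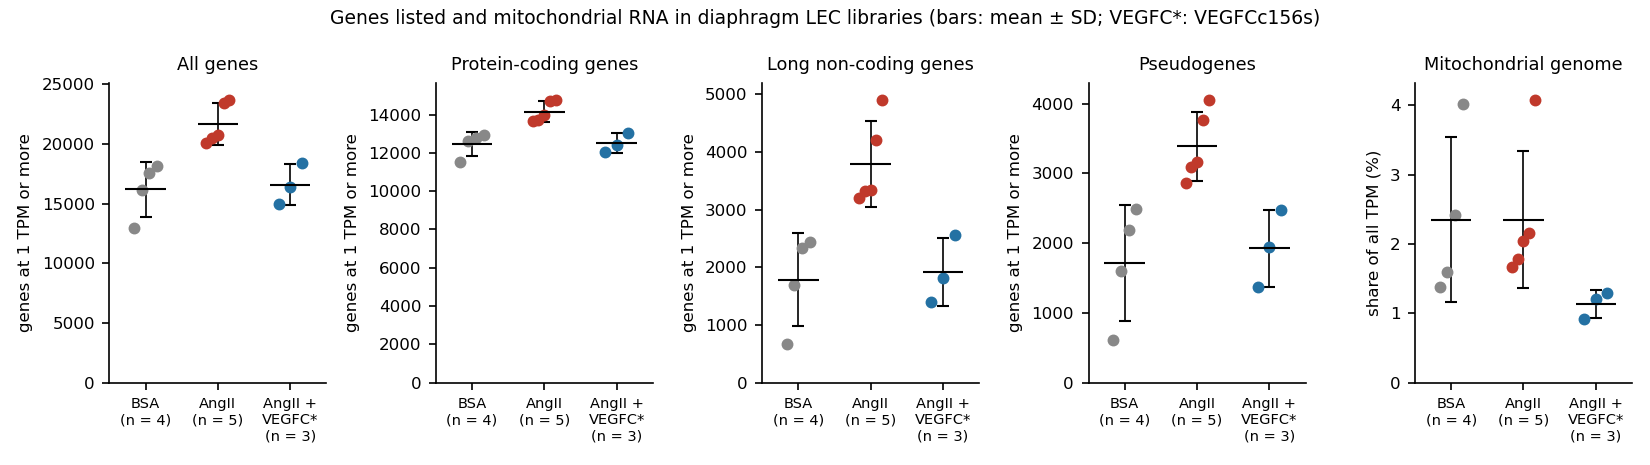
Number of genes at 1 TPM or more in each diaphragm LEC library, for all genes and 3 gene classes, and the share of all TPM from the mitochondrial genome (right), by treatment group; points are libraries and bars show the mean ± SD. The angiotensin II libraries list between 20062 and 23691 genes, above all 3 libraries with VEGFCc156s.

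Changes went with the level of a gene. Among 5451 genes with a mean of 2 to 5 TPM the median change was -0.70, and 801 were lower and 33 higher at an unadjusted p under 0.05. Among 4364 genes at 20 to 100 TPM the median was 0.08, with 62 lower and 85 higher. Among 1609 genes at 100 TPM or more it was 0.13, with 14 lower and 45 higher. A low gene that reached the filter only in its higher group had to differ. The excess of lower genes lay in the low range, and abundant genes were more often higher than lower. By class, the median was -0.05 in 15144 protein-coding genes, -0.61 in 1460 lincRNAs and -0.61 in 3193 processed pseudogenes. Without angiotensin II mouse 4 the median at 2 to 5 TPM was -0.44, and at 100 TPM or more it was 0.06.

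**Figure D2:**
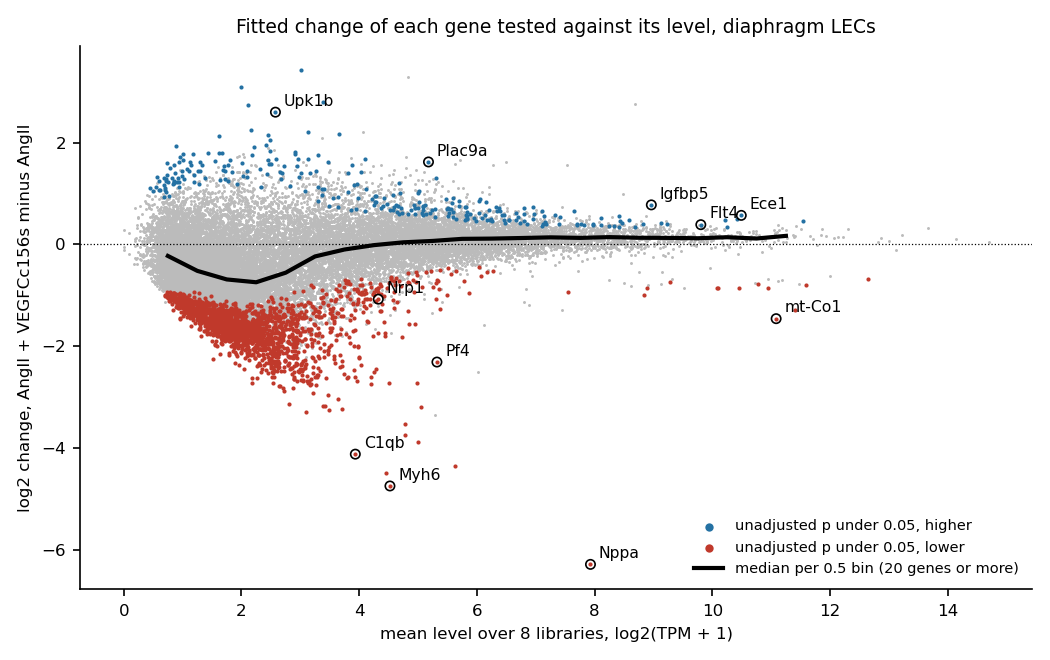
Change of each tested gene with VEGFCc156s (vertical axis, log2 scale) against its mean level in the 8 libraries (horizontal axis, log2(TPM + 1)); blue and red points have an unadjusted p under 0.05, and the black line joins medians of bins of 20 genes or more. The line lies below 0 at low levels and slightly above 0 at high levels, and no gene passed the adjusted threshold.

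The receptor of the growth factor was among the genes that were higher. Flt4 (ENSMUSG00000020357, chromosome 11, 49609263 to 49652739, GRCm38) was at 610, 617, 862, 883 and 953 TPM with angiotensin II and at 1065, 908 and 1247 TPM with VEGFCc156s. The groups overlapped in 1 library, that of VEGFCc156s mouse 6. The change was 0.39 (SE 0.17, unadjusted p = 0.0351, limma adjusted p = 0.567). It was 0.40 in batch 1 and 0.33 in batch 2, and dropping any single library gave 0.33 to 0.51. The unadjusted p stayed under 0.05 in 6 of those 12 fits. Control libraries were at 863 ± 176 TPM (SD, n = 4).

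The other 10 lymphatic identity genes did not pass the unadjusted threshold. Of the 11 measured, 10 had a positive change and 1, Nrp2, a negative one of -0.03, and the median was 0.16, against -0.21 for all genes tested and 0.13 for those at 100 TPM or more, the range of most of this list. Mmrn1, a secreted glycoprotein of lymphatic endothelium, was at 3353 ± 632 TPM and 4382 ± 595 TPM, a change of 0.31 (SE 0.16). The change of Pdpn was 0.46 (SE 0.25) and that of Lyve1 0.16 (SE 0.16). Prox1 differed by 0.09 (SE 0.19) and Tbx1, a transcription factor needed for lymphatic growth, by 0.34 (SE 0.31). Ccl21a, the chemokine by which lymphatic vessels attract dendritic cells, was the most abundant of the list, at 26710 ± 7285 TPM and 26262 ± 1221 TPM. Sox18, Nr2f2 and Reln differed by 0.05, 0.17 and 0.08. The sign of Prox1, Nr2f2, Reln, Sox18, Ccl21a and Nrp2 turned in at least 1 other setting. The list median remained positive in every alternative scaling, at 0.13 after quantile normalization and 0.16 with the number of listed genes as a covariate, and dropping any single library gave 0.13 to 0.23.

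The VEGF pathway had 12 of 13 members tested, 1 higher (Flt4) and 1 lower (Nrp1) at an unadjusted p under 0.05. Over all genes the shares were 1.12% and 7.66%. The median change of the VEGF list, 0.18, had no stable sign, at -0.08 in batch 1, -0.14 in batch 2 and -0.17 with the number of listed genes as a covariate. It was 0.04 without VEGFCc156s mouse 6. Nrp1, a neuropilin that serves as a co-receptor on arterial and capillary endothelium, was at 13.1, 24.7, 41.9, 14.8 and 34.3 TPM with angiotensin II and at 5.41, 11.9 and 6.22 TPM with VEGFCc156s. All 3 of the latter lay below the former. The change was -1.08 (SE 0.41, unadjusted p = 0.0186, limma adjusted p = 0.567), -0.95 in batch 1 and -1.79 in batch 2, and -1.36 to -0.53 on dropping any single library. Kdr, the gene for VEGFR2, was at 412 ± 84 TPM and 517 ± 85.3 TPM, a change of 0.32 (SE 0.17). Flt1, a decoy receptor for VEGFA, was at 18.6 ± 12.8 TPM and 6.36 ± 4.19 TPM, a change of -0.72 (SE 0.61). Among the ligands, Vegfa, Vegfb, Pgf and Vegfd had changes of 0.32, 0.49, 0.21 and 0.31, each smaller than 2 SE, and the sign of Vegfa, Pgf and Vegfd turned in at least 1 other setting. The mouse Vegfc transcript, distinct from the infused human protein, was at 4.73 ± 4.98 TPM and 1.30 ± 0.231 TPM, a change of -0.63 (SE 0.77). Ccbe1 and Adamts3, which take part in cleaving VEGFC to its active form, had changes of 0.15 (SE 0.48) and -0.72 (SE 0.65). Adamts3 was at 7.47 TPM in angiotensin II mouse 4 and at 0.46 to 0.68 TPM in the other 4, and Adamts14 fell below the filter.

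Other endothelial lists held genes in both directions. Ece1, the enzyme that activates endothelin, was at 1091, 714, 1309, 1377 and 1558 TPM with angiotensin II and at 1682, 1730 and 2046 TPM with VEGFCc156s, with no overlap. The change was 0.57 (SE 0.20, unadjusted p = 0.0134), 0.78 and 0.34 in the batches. Among the 15 junction genes 2 were higher and 1 lower at an unadjusted p under 0.05, against 1.12% and 7.66% of all genes. Cdh5 (VE-cadherin) was at 65.0 ± 16.4 TPM and 90.4 ± 6.32 TPM and Jup (plakoglobin) at 489 ± 81.6 TPM and 665 ± 119 TPM, changes of 0.50 and 0.41. Jam2, a junctional adhesion molecule, was the 1 lower, at 30.4 ± 19.7 TPM and 4.66 ± 0.947 TPM. Icam2, an adhesion molecule that endothelium expresses at rest, was at 311 ± 28.2 TPM and 388 ± 38.4 TPM, a change of 0.35 without overlap. In the TGF-beta and BMP list of 24 genes, the co-receptors Eng and Tgfbr3 were higher by 0.38 and 0.54. Smad6, an inhibitor of BMP signalling, was lower, at -1.23.

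**Figure D3:**
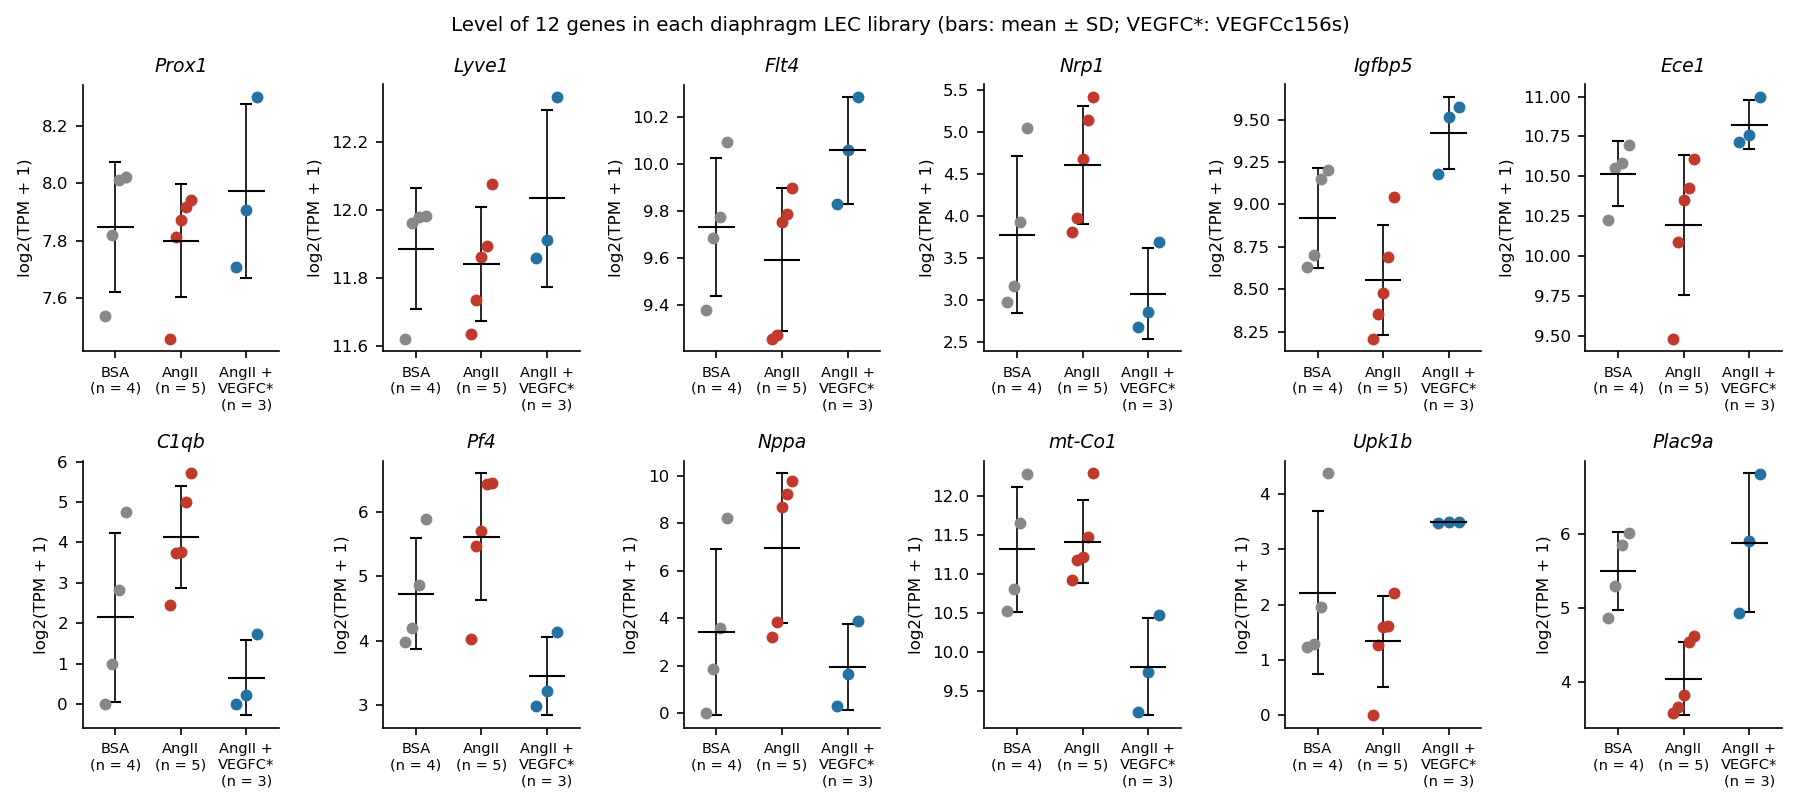
Level of 12 genes in each library on the log2(TPM + 1) scale, by treatment group; points are libraries and bars show the mean ± SD. The groups with and without VEGFCc156s do not overlap for Nrp1, Igfbp5, Ece1, C1qb, mt-Co1, Upk1b and Plac9a, and overlap for Prox1, Lyve1, Flt4, Pf4 and Nppa.

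Of the higher genes without overlap and with a group mean of 5 TPM or more, Igfbp5 (ENSMUSG00000026185), a binding protein for insulin-like growth factors, had the smallest unadjusted p. It was at 295, 327, 356, 413 and 527 TPM with angiotensin II and at 578, 761 and 730 TPM with VEGFCc156s. The change was 0.78 (SE 0.19, unadjusted p = 9.91e-04, limma adjusted p = 0.567), 1.23 in batch 1 and 0.48 in batch 2, and 0.49 to 1.04 on dropping any single library. Control libraries, at 396 to 587 TPM, overlapped both groups. Plac9a, a small secreted protein, was at 13.1, 10.9, 22.2, 11.6 and 23.5 TPM against 29.5, 59.1 and 111 TPM. Its change was 1.62 (SE 0.40, unadjusted p = 0.00122), and its control libraries were at 28.2 to 63.6 TPM.

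The other higher genes of the same rule were at moderate levels. Pi4kb and Itpk1, kinases of phosphoinositide and inositol phosphate metabolism, were at 9.65 ± 1.86 and 40.3 ± 10.6 TPM with angiotensin II and at 21.6 ± 3.60 and 69.1 ± 8.67 TPM with VEGFCc156s. Ptdss2, which makes phosphatidylserine, had a change of 1.19, and Sult1a1, a sulfotransferase, one of 0.66. Mid1ip1, which promotes fatty acid synthesis, and Txndc9, of the thioredoxin-domain family, were higher by 0.70 and 0.65. Gpsm3, a regulator of G-protein signalling, was higher by 1.20, Coch, a matrix protein, by 1.84 and Itih3, a hyaluronan-binding inter-alpha-trypsin inhibitor chain, by 0.72. Tmem62, Ascc2 and Ulk4 were higher by 1.04, 0.84 and 1.05.

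Of 34 collagen chains tested, 2 were higher and 2 lower at an unadjusted p under 0.05, against 1.12% and 7.66% of all genes, and the median was -0.41 (-0.01 after quantile normalization). The higher ones were the basement membrane chains Col4a1, at 284 ± 69.7 TPM and 435 ± 73.7 TPM, and Col4a5, at 7.02 ± 4.13 TPM and 14.0 ± 3.34 TPM. The lower ones were the fibrillar chains Col27a1, at 8.22 ± 10.6 TPM and 0.136 ± 0.0175 TPM, and Col5a2, at 16.4 ± 8.11 TPM and 6.93 ± 1.67 TPM. At these levels Col27a1 could meet the filter only through the other groups, which favours a lower value with VEGFCc156s. Emilin1, an elastic fibre protein of lymphatic anchoring filaments, was at 110 and 143 TPM on average, a change of 0.50 (SE 0.23). Svep1, a matrix protein that takes part in lymphatic remodelling through the Tie1 receptor, was at 9.97, 50.5, 6.32, 9.45 and 10.3 TPM against 1.61, 3.87 and 3.12 TPM. Its change of -1.67 was 0.26 with the number of listed genes as a covariate, so its direction depended on that setting. Angpt4, a Tie2 ligand, was at 5.67 ± 9.91 TPM against 0.0221 ± 0.0384 TPM, and 23.3 TPM of the former came from mouse 4 alone. Like Col27a1, Angpt4 could meet the filter only through the other groups.

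Among lower genes, C1qb had the smallest p of the whole comparison. C1qa, C1qb and C1qc encode the 3 chains of C1q, the first component of the classical complement pathway, which in most tissues is made by macrophages. C1qb (ENSMUSG00000036905) was at 51.5, 31.1, 12.3, 4.46 and 12.5 TPM with angiotensin II and at 0, 2.30 and 0.173 TPM with VEGFCc156s, with no overlap. The change was -4.12 (SE 0.66, unadjusted p = 1.99e-05, limma adjusted p = 0.474), -3.10 in batch 1 and -2.99 in batch 2, and -4.70 to -3.54 on dropping any single library. C1qa was at 9.70 ± 11.0 TPM and 0.766 ± 0.774 TPM, a change of -2.22 (SE 0.88), and C1qc at 11.5 ± 12.1 TPM and 0.679 ± 1.05 TPM, a change of -2.27 (SE 1.04). Both overlapped between the groups. At these levels all 3 genes could meet the filter only with libraries of the other groups, which favours a lower value with VEGFCc156s. Control libraries held between 0 and 26.0 TPM of C1qb, so they spanned both groups.

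The promoters of C1qb and C1qc are shown because these neighbouring genes of chromosome 4 were lower together. RefSeq windows on GRCm38.p6 were matched by symbol for 2 of the 3 genes, and each runs from 250 bases before to 50 bases after the annotated start, on the minus strand. Capitals mark GAGGAA, the core of the PU-box bound by the myeloid factor PU.1, or its reverse complement TTCCTC. These letters were searched on both strands, and 28.3% of the 32851 windows of the same length hold them, so their presence is a description only.
C1qb, chr4:136886151-136886450: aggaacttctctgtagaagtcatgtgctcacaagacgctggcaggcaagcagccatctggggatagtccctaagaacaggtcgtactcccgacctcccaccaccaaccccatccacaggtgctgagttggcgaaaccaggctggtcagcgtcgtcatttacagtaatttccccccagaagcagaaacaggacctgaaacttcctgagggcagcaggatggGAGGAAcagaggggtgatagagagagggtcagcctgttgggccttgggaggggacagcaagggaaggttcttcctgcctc
C1qc, chr4:136892865-136893164: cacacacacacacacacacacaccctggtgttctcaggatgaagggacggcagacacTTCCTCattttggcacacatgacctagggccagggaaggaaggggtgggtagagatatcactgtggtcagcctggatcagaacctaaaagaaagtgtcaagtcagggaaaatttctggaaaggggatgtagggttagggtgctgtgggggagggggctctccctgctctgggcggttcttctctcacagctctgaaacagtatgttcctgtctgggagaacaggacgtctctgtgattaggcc

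The C1q genes belong to a list of macrophage and leukocyte markers, cells that the CD45.2 gate should remove. Of its 14 members 12 were tested, 5 were lower and 0 higher at an unadjusted p under 0.05, against 7.66% and 1.12% of all genes, and the median change was -1.22 (-1.13 and -1.34 in the batches, -0.87 after quantile normalization). Besides C1q these were Csf1r, the receptor for macrophage growth factor, at 1.20 ± 1.02 TPM and 0.0806 ± 0.0826 TPM, and Tyrobp, an adaptor of myeloid receptors, at 11.4 ± 9.52 TPM and 1.53 ± 2.16 TPM. At these levels all 5 could meet the filter only with libraries of the other groups, which favours a lower value with VEGFCc156s. The count of 5 lower is therefore not free of the filter. Of the 12 tested, 10 had a negative change and 2 a positive one, Cd68 (0.39) and Cd79a (0.27). Laptm5, a lysosomal protein of blood cells that came up by the rule on p, was at 8.15, 4.98, 12.8, 8.66 and 10.9 TPM against 0.495, 1.27 and 0.563 TPM. It met the filter in the same way. The summed level of the list lay between 149 and 414 TPM with angiotensin II, between 40.3 and 67.4 TPM with VEGFCc156s and between 47.1 and 373 TPM in controls. S100a8 was at 0 in all 8 libraries. In bulk RNA fewer cells of a type and less RNA per cell cannot be told apart, and the part of these cells in the C1q difference was not tested.

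The platelet gene Pf4 was lower, while the sum of platelet and red cell markers overlapped between the groups. This chemokine was at 15.3, 85.7, 50.9, 84.9 and 43.3 TPM against 6.91, 16.5 and 8.30 TPM, overlapping in 1 library. The change was -2.31 (SE 0.57, unadjusted p = 0.00105, limma adjusted p = 0.567). Tubb1, the tubulin of platelets, was at 5.51 ± 2.47 TPM and 0.170 ± 0.295 TPM without overlap. At these levels Tubb1 could meet the filter only through the other groups, which favours this direction. Of the 9 erythroid and platelet markers, 1 was lower (Pf4) at an unadjusted p under 0.05, against 7.66% of all genes. The sum ranged from 417 to 4999 TPM with angiotensin II and from 473 to 638 TPM with VEGFCc156s. Its part in the Pf4 difference was not tested.

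Heart muscle transcripts were present in some of these diaphragm libraries. Nppa, the atrial natriuretic peptide gene, was at 893, 606, 8.19, 406 and 13.6 TPM with angiotensin II and at 2.12, 13.7 and 0.243 TPM with VEGFCc156s. Thus 3 of the 5 angiotensin II libraries were high, and those of mice 14 and 18 lay within the range with VEGFCc156s. The change of Nppa was -6.28 (SE 1.54, unadjusted p = 0.00105), and 1 control library held 295 TPM. Myh6, the cardiac alpha-myosin heavy chain, was at 74.3, 78.5, 1.30, 16.6 and 4.07 TPM against 0.597, 0.0433 and 0.507 TPM, and Pln, the calcium pump regulator phospholamban, at 17.7 ± 16.8 TPM against 1.25 ± 0.574 TPM. At these levels Myh6 could meet the filter only through the other groups, which favours a lower value with VEGFCc156s. Pgam2, a muscle glycolytic enzyme, Mb (myoglobin) and Fabp3 (a muscle fatty acid binding protein) had changes of -2.68, -2.72 and -2.72. Summed over 12 heart muscle genes, a list chosen after values were seen, the level was 35.3 to 1591 TPM with angiotensin II and 15.0 to 43.7 TPM with VEGFCc156s. For comparison, Nppa lay between 13.9 and 171 TPM in the heart LEC libraries of angiotensin II mice. The source of these transcripts was not tested.

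Markers of the mesothelium, the sheet that covers the diaphragm, went the other way. Of 9 tested, 3 were higher and 0 lower at an unadjusted p under 0.05, against 1.12% and 7.66% of all genes. The median change was 1.28 (0.20 and 1.32 in the batches), 0.80 without VEGFCc156s mouse 8 and 0.67 with the number of listed genes as a covariate. Upk1b was at 2.01, 0, 3.64, 1.41 and 2.06 TPM with angiotensin II and at 10.2, 10.2 and 10.2 TPM with VEGFCc156s. The change was 2.60 (SE 0.67, unadjusted p = 0.00162), 2.21 and 2.05 in the batches, and 0.97 (unadjusted p = 0.279) with the number of listed genes as a covariate. Krt19 and Upk3b, a keratin and an uroplakin, were higher by 1.61 and 1.54 and overlapped between the groups. Wt1 had a negative change of -0.30, and Gpm6a one of 0.27. The summed level of the list was 334 to 459 TPM with angiotensin II, 435 to 603 TPM with VEGFCc156s and 454 to 564 TPM in controls. With angiotensin II the highest levels of Upk1b, Upk3b and Krt19 were 3.64, 8.53 and 23.9 TPM. Other members therefore made up most of that sum, which does not follow the named genes. Of the remaining marker lists, fibroblast genes had negative changes in 11 of 11, none at an unadjusted p under 0.05, with sums of 745 to 3006 TPM and 651 to 1052 TPM. Blood endothelial markers had a median of -0.55 with 0 of 11 past that threshold, but -0.05 without control mouse 5. Mural cell markers had one of -0.39 with 0 of 9, but -0.03 without angiotensin II mouse 4. Skeletal muscle markers had one of -0.23 with 2 of 13 lower (Mb and Ttn), against 7.66% of all genes. This median turned to 0.13 without VEGFCc156s mouse 2 and 0.08 after quantile normalization. Of the adipocyte markers, all 6 were at 0 in the 3 libraries with VEGFCc156s. The 2 that met the filter could do so only through the other groups, so no test of them is given.

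**Figure D4:**
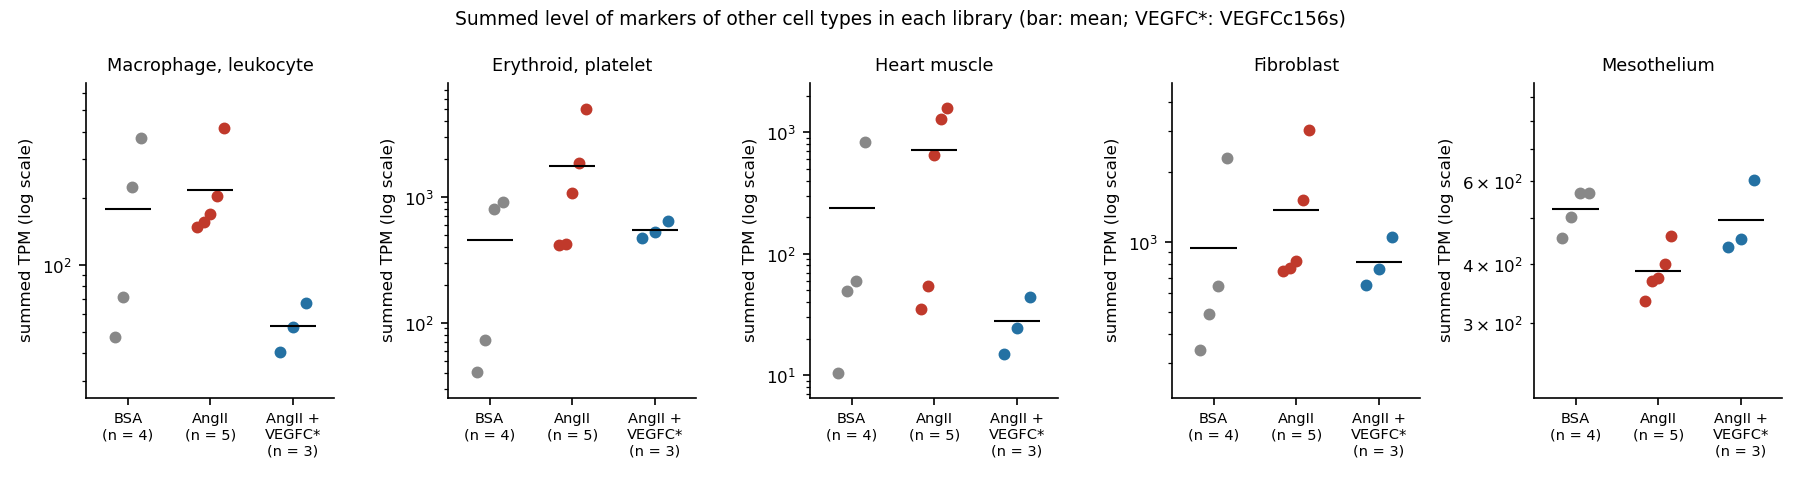
Summed TPM (log axis) of marker genes of 5 other cell types in each library, by treatment group; points are libraries and bars are means. Macrophage and leukocyte sums are 40.3 to 67.4 TPM with VEGFCc156s against 149 to 414 TPM with angiotensin II alone. Sums of the mesothelial list are 435 to 603 TPM against 334 to 459 TPM, and overlap.

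The 13 protein genes of the mitochondrial genome were lower as a group. All 13 had a negative change, 8 with an unadjusted p under 0.05 and 9 without overlap between the groups, against 7.66% and 7.35% of all genes. The median was -0.85, with -1.10 and -0.67 in the batches, -0.91 after quantile normalization and -0.97 with the number of listed genes as a covariate, and dropping any single library gave -1.09 to -0.59. mt-Co1, a subunit of cytochrome c oxidase, was at 2836, 5014, 2317, 2373 and 1942 TPM with angiotensin II and at 856, 1421 and 600 TPM with VEGFCc156s. Its change was -1.46 (SE 0.38, unadjusted p = 0.00156), and dropping any single library gave -1.69 to -1.23. mt-Atp6, of the ATP synthase, had a change of -0.79, mt-Co2 one of -0.85 and mt-Nd1, of complex I, one of -0.86. As a share of all TPM, mitochondrial genes took 2.34% on average with angiotensin II (1.66% to 4.08%), 1.14% with VEGFCc156s (0.91% to 1.30%) and 1.38% to 4.01% in controls. The 2 groups did not overlap (exact permutation test, p = 0.0536, 0.0964 after adjustment over the 9 measures). Of the 74 nuclear genes of oxidative phosphorylation, 0 passed the unadjusted threshold and the median was 0.08.

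**Figure D5:**
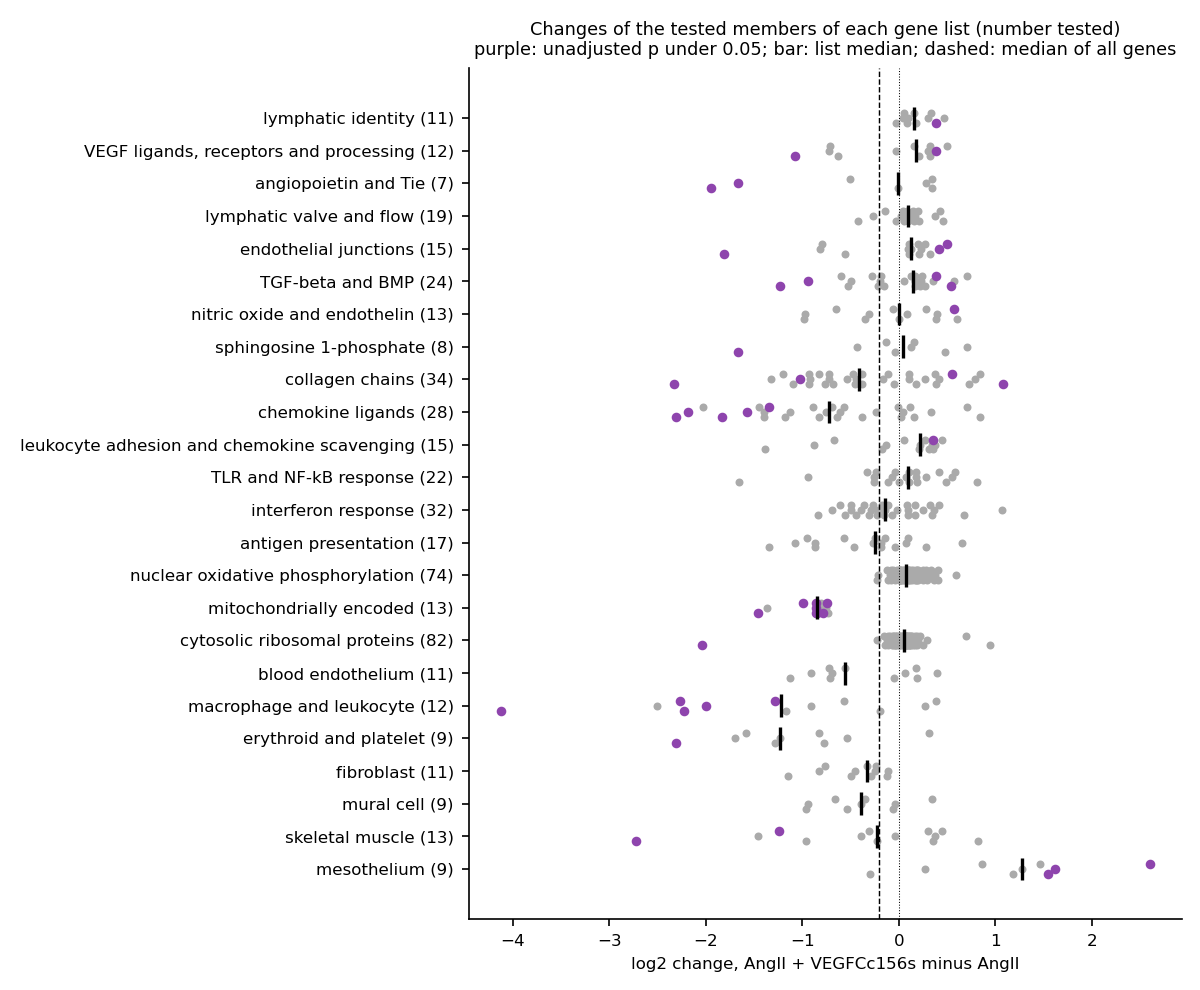
Changes with VEGFCc156s (horizontal axis, log2 scale) of the tested members of 24 gene lists, with the number tested in parentheses; each point is a gene, purple points have an unadjusted p under 0.05, black bars are list medians and the dashed line is the median of all genes, -0.21. The mitochondrially encoded genes sit together below 0, and macrophage markers lie lower and mesothelial markers higher than the endothelial lists.

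Of 28 chemokine ligands tested, 5 were lower and 0 higher at an unadjusted p under 0.05, against 7.66% and 1.12% of all genes, and the median was -0.73 (-0.40 after quantile normalization). Among all genes at 2 to 5 TPM, 14.7% were lower and 0.61% higher, with a median of -0.70. Since several chemokines were low, the count is not read as a result about the list. The 5 lower ones were Pf4, Ccl6, Ccl24, Ccl25 and the fractalkine gene Cx3cl1. Ccl24, an eotaxin, was at 3.94 ± 2.53 TPM and 0.548 ± 0.666 TPM, and Ccl6, made mainly by myeloid cells, was at 5.53 ± 4.93 TPM with angiotensin II and had a change of -2.18. At its level with VEGFCc156s, Ccl24 could meet the filter only with libraries of the other groups. Ccl25 and Cx3cl1 had changes of -1.57 and -1.35. Cxcl1, the neutrophil chemokine also called KC, was at 154, 58.3, 92.1, 130 and 288 TPM against 91.6, 119 and 94.4 TPM, a change of -0.23 (SE 0.42) that was 0.34 in batch 1 and -1.05 in batch 2. Cxcl10, an interferon-induced chemokine, was at 24.5 ± 16.7 TPM and 7.29 ± 2.30 TPM, a change of -0.61 (SE 0.66). Ccl22 was below 1 TPM in all 8 libraries. Tlr3, a receptor for double-stranded RNA, was at 17.4, 12.3, 20.2, 12.5 and 20.4 TPM against 29.8, 21.9 and 22.5 TPM, without overlap, a change of 0.59 (SE 0.31, unadjusted p = 0.0763). Tlr4, the endotoxin receptor, was at 2.35 ± 1.51 TPM and 1.50 ± 1.22 TPM, a change of -0.25 that was 0.18 after quantile normalization, and Mycn, a growth-promoting transcription factor, had a change of -0.88 (SE 0.54).

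The wider signalling lists held few genes past the unadjusted threshold, which 1.12% of all genes passed as higher and 7.66% as lower. From 20 to 100 TPM these shares were 1.95% and 1.42%, so none or 1 in such a list is not a result about that list. None passed of 22 genes of the Toll-like receptor and NF-kB response, 32 interferon response genes, 17 antigen presentation genes, 30 MYC growth genes, 15 Notch genes, 19 lymphatic valve and flow genes, 17 glycolysis genes, 23 immediate early and heat shock genes, 9 renin-angiotensin genes and 7 adrenomedullin and apelin genes. The median of the last list was 0.31 but 0.52 and -0.58 in the batches and -0.27 without VEGFCc156s mouse 6, and that of the renin-angiotensin genes ran from -0.67 to -0.06 on dropping any single library. Of 35 cell cycle genes 1, the checkpoint kinase Bub1b, was lower, and of 82 cytosolic ribosomal protein genes 1, Rpl6l, whose reads may be shared with Rpl6, was lower. S1pr2, a receptor for sphingosine 1-phosphate, was at 5.41 ± 3.28 TPM and 1.15 ± 0.783 TPM. Trib3, a pseudokinase of the stress response, was at 33.6 ± 11.8 TPM and 60.2 ± 1.81 TPM, and the clock gene Per1 at 7.94 ± 2.55 TPM and 15.6 ± 0.810 TPM, each higher without overlap.

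The remaining lower genes of the rule on p had low levels with VEGFCc156s. Kat6b, a histone acetyltransferase, was at 19.3 ± 8.24 TPM and 5.94 ± 2.94 TPM, Parvb, a focal adhesion protein, at 29.0 ± 25.1 TPM and 6.62 ± 0.995 TPM, and Pdzd2 at 20.9 ± 7.87 TPM and 8.64 ± 3.46 TPM. Smim4, of the mitochondrial inner membrane, was at 39.0 ± 30.9 TPM and 9.10 ± 1.71 TPM. Treml4, a myeloid receptor, was at 2.16 to 17.5 TPM with angiotensin II and 0 to 0.236 TPM with VEGFCc156s, and Cfap61, a cilium protein, at 3.61 to 15.9 TPM and 0.0295 to 1.56 TPM. Treml4, Cfap61 and Olfr691 reached the filter through the angiotensin II group, which fixes their direction. Ighv2-9-1, Trav6d-5 and Olfr691 belong to large families of similar sequence, so their values are uncertain.

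The same contrast in heart LECs gave other values for several of these genes, and the difference between the 2 sites was fitted over 31319 genes. None had an adjusted p under 0.05 (limma, smallest 1.00), and 867 (2.77%) had an unadjusted p under 0.05. That share is below the 5% that chance alone gives at this threshold. Most genes named below were picked by their diaphragm values, which favours a heart value nearer 0 and a small p of the difference. Those p-values therefore describe and do not show a difference between sites. Heart values and p-values of the difference come from this joint fit, and diaphragm values from the fit of the diaphragm libraries alone. The values shown therefore need not subtract to the difference tested. Of the mitochondrial genes, mt-Co1 was at -1.46 in the diaphragm and 0.53 in the heart (unadjusted p of the difference 7.98e-04) and mt-Atp6 at -0.79 and 0.76 (0.00223). C1qb was at 0.66 in heart LECs (unadjusted p of the difference 0.0219), Laptm5 at 0.62 (0.00854) and Upk1b at -0.70 (0.0131). Flt4, at 0.24, and Igfbp5, at 0.58, had the same sign at both sites, with unadjusted p-values of the difference of 0.573 and 0.608. Kdr was at -0.19 in the heart (0.0387) and Col4a1 at -0.26 (0.0145).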

How the data were processed

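RNA of sorted diaphragm LECs was sequenced from a full-length, ultra-low-input library. The authors aligned reads to GRCm38 with STAR 2.5.3a, quantified Ensembl genes with Salmon 0.12.0 and deposited a matrix of TPM values. TPM keeps no read counts, so sequencing depth is unknown and no counting error is given. The tally of listed genes depends on the cut and is not read as depth. Within its group, angiotensin II mouse 4 had the highest tally at the 1 TPM cut (23691) but the lowest at 0.1 TPM (26147). Fits with this tally as a covariate are therefore not a correction for depth. The tally at 1 TPM also did not overlap between the groups compared, so these fits cannot cleanly separate it from treatment. The authors tested counts with DESeq2, which was not used here.

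The 54752 genes were named from GENCODE vM21 (54723 matched). Groups, mice, ages and batches came from the labels. A gene entered the fit if 3 of the 12 diaphragm LEC libraries held it at 1 TPM or above. Values were fitted as log2(TPM + 1) with limma 3.58.1 (R 4.3.3, trended variance), with the 3 treatment groups, age and batch in one model and Benjamini-Hochberg adjustment. The pseudocount of 1 TPM shrinks the change of low genes. Single library measures were compared by exact permutation (scipy 1.17.1). The fit was tested on simulated data.

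The comparison, gene lists and tests were chosen with earlier results of these data known. Named genes were, in each direction, the 15 smallest unadjusted p-values among non-overlapping genes with a group mean of 5 TPM or more, leaving out predicted and clone names; 6 genes of the study; all lymphatic identity and VEGF genes; and up to 4 of each other list. C1qc, Cx3cl1, Nppa and the heart muscle list were chosen after values were seen. The labels give ages in months where the paper gives weeks.

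For the difference between sites, 11 mice gave both diaphragm and heart LEC libraries and are paired by animal. The correlation of their deviations from group means was -0.09 to 0.17, median 0.05.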

Additional observations from a re-analysis of the deposited data

Results flagged for a closer look

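Of 220 group values tested for a sample far from the rest, by Dixon's criterion at its 95% level, 19 stood out, where chance gives about 5%. Of these, 12 belong to angiotensin II mouse 4. It was high for Ccl24 (8.44 TPM against 2.39 to 3.12 in the other 4), Svep1 (50.5 against 6.32 to 10.3), Krt19 (23.9 against 1.53 to 3.69), Adamts3 (7.47 against 0.46 to 0.68) and mt-Atp6 (3158 against 1774 to 1960). It was low for Gpsm3 (4.90 against 17.9 to 27.0), Trib3 (14.1 against 34.1 to 46.1), Upk3b (0 against 5.26 to 8.53), Rn7s1 (0 against 314 to 499) and Aarsd1 (0 against 18.6 to 51.2). It also had 11775 genes at 10 TPM or more and a mitochondrial share of 4.08%. In the same group, Prox1 was low in mouse 3 (175 TPM against 224 to 245) and Gm24497 was at 12.8 TPM in mouse 18 and listed at 0 in the other 4.

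Among controls, Myh6 was high in mouse 5 (43.4 TPM against 0.0655 to 0.767), Eng low in mouse 1 (186 against 247 to 251), Pdzd2 low in mouse 11 (14.6 against 17.9 to 18.4), and Mycn (2.23 against 12.9 to 17.7) and Lyve1 (3150 against 3986 to 4050) low in mouse 9. No cause was tested for any of these.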

How the results depend on the processing

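The count of genes with a limma adjusted p under 0.05 was 0 in 7 of 8 other settings and 3 with 1 surrogate variable (Aarsd1, Rn7s1 and Gm47262), where the first component of the residuals was added; it was 0 to 1 when one library was left out, the 1 being Gm24497 without angiotensin II mouse 18. Higher genes at an unadjusted p under 0.05 numbered 267, against 626 with no filter on low values, 972 with 1 surrogate variable, 603 after quantile normalization, 136 with the 8 libraries only, and 85 to 509 when one library was left out. Lower genes numbered 1827, against 3602, 802 and 255 with 1 surrogate variable, quantile normalization and the number of listed genes as a covariate, and 637 to 2336 when one was left out. Pseudocount 0.1, median-ratio scaling and a fit without age and batch kept each count within 1.5 times.

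The difference in listed genes was -2748 at 0.1 TPM (exact permutation p = 0.143), -1065 at 10 TPM (exact p = 0.304) and -5995 to -4290 when one library was left out. With a replicate block for the mouse, the unadjusted count of genes that differed between sites was 1042 against 867, with 0 adjusted in both; the block changed no call.

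Of 101 named genes, 14 changed sign in at least 1 setting, 41 of 2006 values in all. With the number of listed genes as a covariate these were Svep1 0.26, Aarsd1 -0.25, Vegfd -0.093, Nr2f2 -0.042, Tlr4 0.47, Pgf -0.89, Vegfa -0.24, Ccl21a -0.10 and Nrp2 0.11. After quantile normalization they were Prox1 -0.028, Tlr4 0.18, Reln -0.040 and Sox18 -0.079, and with median-ratio scaling Sox18 -0.0074 and Ccl21a -0.019. With the 8 libraries only they were Reln -0.047, Ccbe1 -0.088, Sox18 -0.044 and Nrp2 0.088, and without age and batch Ccbe1 -0.17. When one library was dropped at a time, the range crossed 0 for Nr2f2 (-0.10 to 0.30), Cxcl1 (-0.53 to 0.085), Prox1 (-0.0067 to 0.20), Tlr4 (-0.56 to 0.0092), Pgf (-0.38 to 0.52), Vegfa (-0.55 to 0.88), Reln (-0.057 to 0.33), Sox18 (-0.088 to 0.21), Ccl21a (-0.18 to 0.21) and Nrp2 (-0.24 to 0.15). No cause was tested. Depth, unknown in TPM, limits what the low genes show.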
